A study of Homo sapiens with 8 samples.

Results

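The HOXC cluster is one of the HOX gene clusters of the human genome and holds 9 genes, HOXC4, HOXC5, HOXC6, HOXC8, HOXC9, HOXC10, HOXC11, HOXC12 and HOXC13. They were taken as every non-control probe on the array whose gene name is one of these symbols. This gave 9 of the 27363 gene names on the array and 9 of its 34127 gene probes, 1 per gene, each on 1 spot. A gene name is the RefSeq symbol where one matched and otherwise the array's own name, which can be a probe or transcript identifier. The set and the comparisons below were chosen on the levels, the background calls and the siRNA contrasts measured here, so the values of its members are a description and not a test. RNA was hybridized to 8 one-color Agilent arrays, 2 in each of 4 groups, to ask which genes change when the homeobox gene HOXB7 is silenced. The groups were MIA PaCa-2 cells 48 hours after transfection with 10 nM of a HOXB7-specific siRNA, untransfected (parental) MIA PaCa-2 cells, Capan-1 cells given a HOXB7-specific siRNA in the same way, and parental Capan-1 cells. Both are established cell lines from pancreatic ductal adenocarcinoma, and Capan-1 came from a liver metastasis.

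No array of cells given a nonspecific siRNA was analysed here, so transfection and silencing cannot be told apart. Each cell line lay on its own slide, with the siRNA arrays at the first positions and the parental arrays after them. Slide and line, and position and treatment, therefore cannot be told apart either. The paper grew the lines in different media with different shares of serum, so medium and line cannot be told apart. For plating before transfection it names RPMI alone, so medium may also differ between the Capan-1 groups. The labels do not say whether the duplicates came from separate cultures, so the spread between them may be technical. The arrays measure bulk RNA, and fewer cells with a transcript and less of it per cell cannot be told apart. Of the ductal epithelial markers KRT7, KRT8, KRT18, KRT19, MUC1, EPCAM and CDH1, all 7 were well above background on both arrays in both Capan-1 groups, and 5 of 7 in both MIA PaCa-2 groups, where EPCAM and CDH1 were not. Of 11 marker genes of other cell types with a probe, 7 to 8 were well above background per group. The highest mean intensities among them were those of PRSS1 in Capan-1, 2090 in parental and 2970 in siRNA-treated cells. In MIA PaCa-2 they were those of CD79A, 627 and 636. Intensities of different probes have no common scale, so the lists are not compared by them. After siRNA 0 other-type markers were called by limma in either line (2 and 1 at an unadjusted p under 0.05). Over all probes 1.89% were called in MIA PaCa-2 cells and 0.00428% in Capan-1 cells. Of the ductal list a MUC1 probe fell in MIA PaCa-2, by 0.92 on the log2 scale (SE 0.0956, limma adjusted p = 0.0249). The other MUC1 probe tested was at -0.52 (SE 0.1) and was not called. With each cell line fitted alone, 0 probes of any gene were called in MIA PaCa-2.

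HOX genes encode homeodomain transcription factors that give cells positional identity along the body axis of the embryo, and they are used again in adult tissues and tumors. Genes of a cluster lie in the order in which they act, from the anterior genes (HOXC4, HOXC5, HOXC6) through the central ones (HOXC8, HOXC9) to the posterior ones (HOXC10 to HOXC13), and genes at the same place in different clusters are paralogues, such as HOXC8 and HOXB8. The anterior HOXC genes can share a start and a leader exon, and HOTAIR, a long noncoding RNA, is made from the opposite strand between HOXC12 and HOXC11.

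A probe is the 60-base DNA that captures a transcript, and related genes can capture each other's RNA when they share sequence. The stretches below are shown because the central and anterior genes carry most of the values that follow. For HOXC8 and HOXC9 they are 30 bases of the probe, with the longest run shared with a probe of another HOX gene in capitals. For HOXC6 and HOXC4 they are the 30 bases around the polyadenylation signal AATAAA, in capitals.
HOXC8: taaattgcactGAATGTATagttaactctg
HOXC9: tcttgcgattTGGGAGGGTTCagtgttgag
HOXC6: ttctcgaatatttAATAAAactgatattat
HOXC4: cccgtgatcaatAATAAAccagtggatgtg
The shared run was 8 bases for HOXC8, with HOXB8, and 11 bases for HOXC9, with HOXB9. Over the 9 probes it was 8 to 11 bases against other HOX probes and 12 to 15 bases against probes of any gene. Probes were compared with probes only, not with the whole transcripts of other genes. These runs therefore cannot tell whether a probe captures the RNA of a paralogue, which was not tested.

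The HOXC10 and HOXC12 probes are shown whole, because they lie in the homeobox itself and carry the motif ANATNTGGT (in capitals), from the part of the homeobox that encodes the DNA recognition helix.
HOXC10: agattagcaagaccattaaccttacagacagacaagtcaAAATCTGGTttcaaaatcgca
HOXC12: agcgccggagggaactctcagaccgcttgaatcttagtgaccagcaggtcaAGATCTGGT
On the given strand this motif was found in 162 of 34127 probes (0.475%), and of 43 HOX probes only these 2 held it. On either strand it was in 337 probes (0.987%). The motif covers only a part of the homeobox, so a HOX probe without it can still lie in another part. Other parts were not searched for, so whether the HOXC5 probe or other HOXC probes lie in them was not tested.

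On the hg18 coordinates given in the scanner annotation the probes run along the plus strand of chromosome 12 from HOXC13 (chr12:52626301-52626360) to HOXC4 (chr12:52736022-52736081), 109.7 kb apart. HOXC8 (chr12:52692578-52692637) lies 66.3 kb from the HOXC13 probe, between HOXC9 at 56.6 kb and HOXC6 at 84.5 kb. HOXC5 lies at 88.1 kb, HOXC10 at 43.1 kb, HOXC11 at 29.2 kb and HOXC12 at 10.2 kb. No member spot was saturated or carried an outlier flag.

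The silenced gene HOXB7 (chr17:44039988-44040047, minus strand) had intensities of 11.6 and 15.4 with parental MIA PaCa-2 RNA, and of 1.14 and 1.18 on the siRNA arrays, where it was not well above background. In Capan-1 it was at 47.4 and 61.5 on the parental arrays and at 6.56 and 9.504 on the siRNA arrays. The siRNA arrays lay below the parental arrays in both lines. After scaling, HOXB7 was at least 2.86-fold lower in MIA PaCa-2 (limma adjusted p = 0.0174). In Capan-1 its log2 difference was -2.62 (SE 0.263, limma adjusted p = 0.126), which did not pass the test.

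Intensities are given below after the background subtraction of the scanner software. Levels, differences and fold changes are on the log2 scale after the 75th percentile of each array was subtracted, and are compared within a probe only. In the parental cells 3 of the 9 genes were well above background on both arrays in MIA PaCa-2 cells and 6 in Capan-1 cells. In the siRNA groups the numbers were 4 and 5. Over all gene probes 66.9% to 68.4% were well above background on both arrays of a group. Of the other clusters, HOXA had 9 of 11 genes with a probe well above background in both parental lines, HOXB 9 of 10, and HOXD 1 of 9 in MIA PaCa-2 cells and 0 of 9 in Capan-1 cells.

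**Figure D1:**
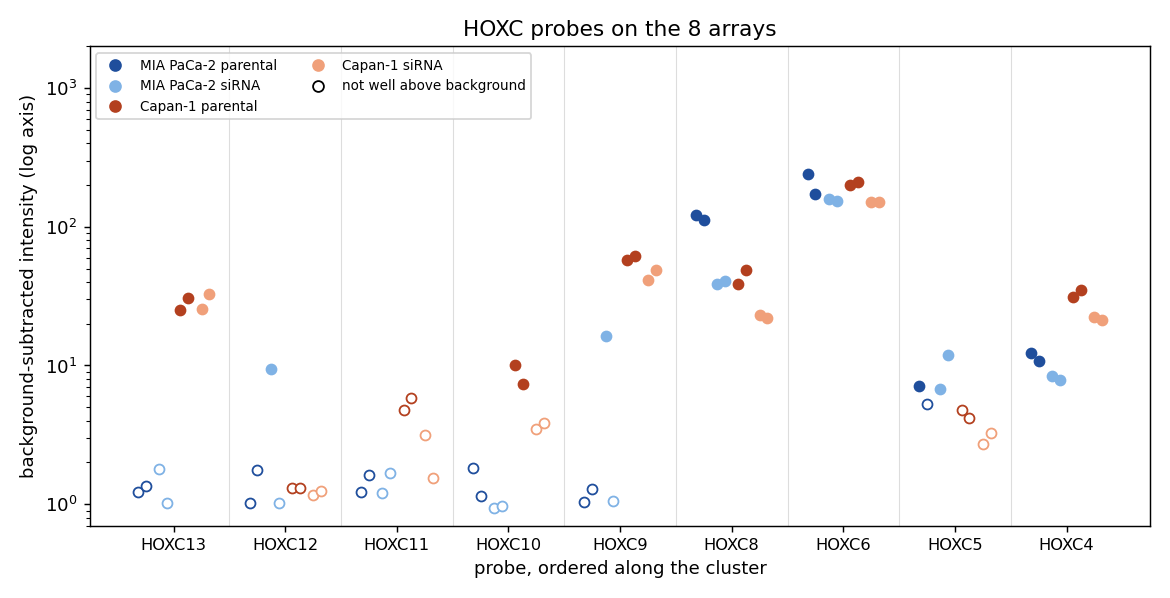
Background-subtracted intensity (log axis) of each HOXC probe on each of the 8 arrays, in cluster order, with 2 points per group and open points where the spot was not well above background. HOXC8 is well above background on all 8 arrays and lower in both siRNA groups. HOXC13 and HOXC9 are well above background in Capan-1, and HOXC9 and HOXC12 each are so on 1 array in MIA PaCa-2.

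HOXC8 encodes a homeodomain factor of the thoracic region. In MIA PaCa-2 its intensity was 121 and 111 on the parental arrays and 38.4 and 41.0 on the siRNA arrays. In Capan-1 it was 38.6 and 48.7 on the parental arrays and 23.1 and 22.1 on the siRNA arrays. In both lines the siRNA arrays were both dimmer than either parental array, and the parental MIA PaCa-2 arrays stood above the other 6. In MIA PaCa-2 the level was -1.34 ± 0.14 (SD, n = 2) in parental and -2.68 ± 0.02 (SD, n = 2) in siRNA-treated cells, a log2 difference of -1.34 (SE 0.104), or 2.53-fold lower. In Capan-1 the level was -2.73 ± 0.07 (SD, n = 2) in parental and -3.52 ± 0.10 (SD, n = 2) in siRNA-treated cells, a log2 difference of -0.79 (SE 0.104), or 1.73-fold lower. The software's own error was 10.0% to 11.4% of the HOXC8 signal on the 8 arrays. HOXC8 passed the adjusted threshold in MIA PaCa-2, but it did not do so when each cell line was fitted alone, with the replicate number as a block, with no filter on dim probes, or without MIA PaCa-2 siRNA replicate 1, MIA PaCa-2 parental replicate 2 or any single Capan-1 array. With a normexp background correction and an offset of 50 the log2 difference was -0.68 in MIA PaCa-2 cells and -0.19 in Capan-1 cells.

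The neighbours of HOXC8 were HOXC9 on the posterior and HOXC6 on the anterior side. HOXC6, another homeodomain factor, was well above background on all 8 arrays. Its intensity was 241.0 and 174 on the parental and 159 and 153 on the siRNA arrays of MIA PaCa-2 cells. In Capan-1 cells it was 202 and 211 on the parental and 151 and 151 on the siRNA arrays. The siRNA arrays lay below the parental arrays in both lines, by a log2 difference of -0.18 (SE 0.106) in MIA PaCa-2 and -0.30 (SE 0.106) in Capan-1, which are smaller than those of HOXC8. HOXC9, whose product belongs to the group of factors that mark the thoracic to lumbar region, was well above background on all 4 Capan-1 arrays, with intensities of 57.4 and 61.5 on the parental and 41.6 and 49.2 on the siRNA arrays. The log2 difference in Capan-1 was -0.24, with an SD within groups of 0.109 and an SE of 1.18. That SE comes from a spread shared over the 8 arrays, and it holds the bright array described next.

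In MIA PaCa-2 the intensity of HOXC9 was 16.4 on siRNA replicate 1, well above background, and 1.06 on siRNA replicate 2, while the parental arrays were at 1.04 and 1.28. HOXC12, a posterior gene, behaved alike there. Its intensity was 9.38 on the same array, 1.02 on siRNA replicate 2, and 1.02 and 1.76 on the parental arrays. In Capan-1 HOXC12 lay between 1.17 and 1.32 on all 4 arrays. The duplicates thus disagreed on both genes, and no mean difference between the groups is given for them in MIA PaCa-2. The median pixel of the HOXC9 spot was 57.0 over a local background of 36.0, with 3 pixels set aside as high and 61 kept, against 40.5 over 38.0 on siRNA replicate 2. MIA PaCa-2 siRNA replicate 1 had 361 probes that were well above background on no other array, MIA PaCa-2 parental replicate 1 had 410, and the other 6 arrays had 52 to 216. The part of this in the HOXC9 and HOXC12 values was not tested.

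HOXC4 and HOXC5 are the anterior genes at the end of the cluster. HOXC4 was well above background on all 8 arrays, at 12.3 and 10.8 on the parental and 8.38 and 7.91 on the siRNA arrays of MIA PaCa-2 cells. In Capan-1 cells it was at 31.3 and 34.8 on the parental and 22.2 and 21.1 on the siRNA arrays. The siRNA arrays were both dimmer than either parental array in each line, with a log2 difference of -0.29 (SE 0.103) in MIA PaCa-2 and -0.46 (SE 0.103) in Capan-1. In MIA PaCa-2 normexp background correction turned the HOXC4 difference to 0.11.

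HOXC5 was at 7.15 and 5.26 on the parental and 6.78 and 11.95 on the siRNA arrays of MIA PaCa-2, and only the first of the parental arrays and both siRNA arrays were well above background. The intensities of the groups overlapped, and after scaling the siRNA arrays were both brighter than either parental array by a log2 difference of 0.77 (SE 0.272), which ran from 0.39 to 1.14 as single arrays were left out. In Capan-1 HOXC5 was not well above background on any array, at 4.81 and 4.18 on the parental and 2.72 and 3.27 on the siRNA arrays. RefSeq gives HOXC4 and HOXC5 the same start, so their promoter windows are one (250 bases upstream, GRCh38.p14, chr12:54016638-54016887, plus strand). The window holds the homeodomain core TAAT once, on either strand, as at least 1 copy does in 47.4% of 35116 promoters of that table.

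Of the posterior genes, HOXC13 and HOXC10 were well above background in parental Capan-1 cells and not in MIA PaCa-2 cells. HOXC13, the most posterior member and a regulator of hair and nail keratins, had intensities of 25.2 and 30.8 on the parental and 25.4 and 32.9 on the siRNA arrays of Capan-1, and of 1.01 to 1.78 on the 4 MIA PaCa-2 arrays. In Capan-1 the siRNA arrays overlapped the parental arrays in intensity, and after scaling they lay above them by a log2 difference of 0.21 (SE 0.31). HOXC10, a factor of the lumbar region, had intensities of 10.1 and 7.36 on the parental Capan-1 arrays, well above background, and of 3.48 and 3.85 on the siRNA arrays, where it was not. On these signals HOXC10 was 2.12-fold lower, which is the measured fold and not a bound. The log2 difference of -1.09 (SE 0.238) did not pass the test (limma adjusted p = 0.239). It ran from -1.44 to -0.74 as single arrays were left out and was 0.03 with normexp background correction. In MIA PaCa-2 HOXC10 was not above background on any array, at 0.94 to 1.82. HOXC11 was not well above background on any of the 8 arrays, at 1.21 to 1.68 in MIA PaCa-2 and at 1.54 to 5.81 in Capan-1. HOTAIR was also not well above background on any array, at 1.19 to 2.32.

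Across the cluster, 4 of the 9 genes could be compared in MIA PaCa-2, HOXC8, HOXC6, HOXC5 and HOXC4. By limma at an adjusted p under 0.05, 1 was called lower, HOXC8, and 0 higher, and 3 had an unadjusted p under 0.05. At the adjusted threshold 0.932% of 23717 probes were called lower, 0.961% higher and 1.89% in either direction. The siRNA arrays were both dimmer than either parental array for 3 genes and above them for 1, beside 23.6% and 27.8% of all probes. In Capan-1, 6 of 9 could be compared, HOXC13, HOXC10, HOXC9, HOXC8, HOXC6 and HOXC4. By limma 0 were called (4 at an unadjusted p under 0.05). At the adjusted threshold 0% of 23376 probes were called lower and 0.00428% higher. No share of all probes was taken at the unadjusted threshold, so the unadjusted counts here and elsewhere have no background to be read against. The siRNA arrays were both dimmer than either parental array for 5 genes and above them for 1, beside 27.9% and 26.3% of all probes. The median log2 difference of the genes compared was -0.23 in MIA PaCa-2 cells and -0.38 in Capan-1 cells, beside 0.02 and -0.01 over all probes. Nothing is read from these counts, since the contrasts chose the set and a gene that is dim in one group enters only through the group where it is brighter.

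**Figure D2:**
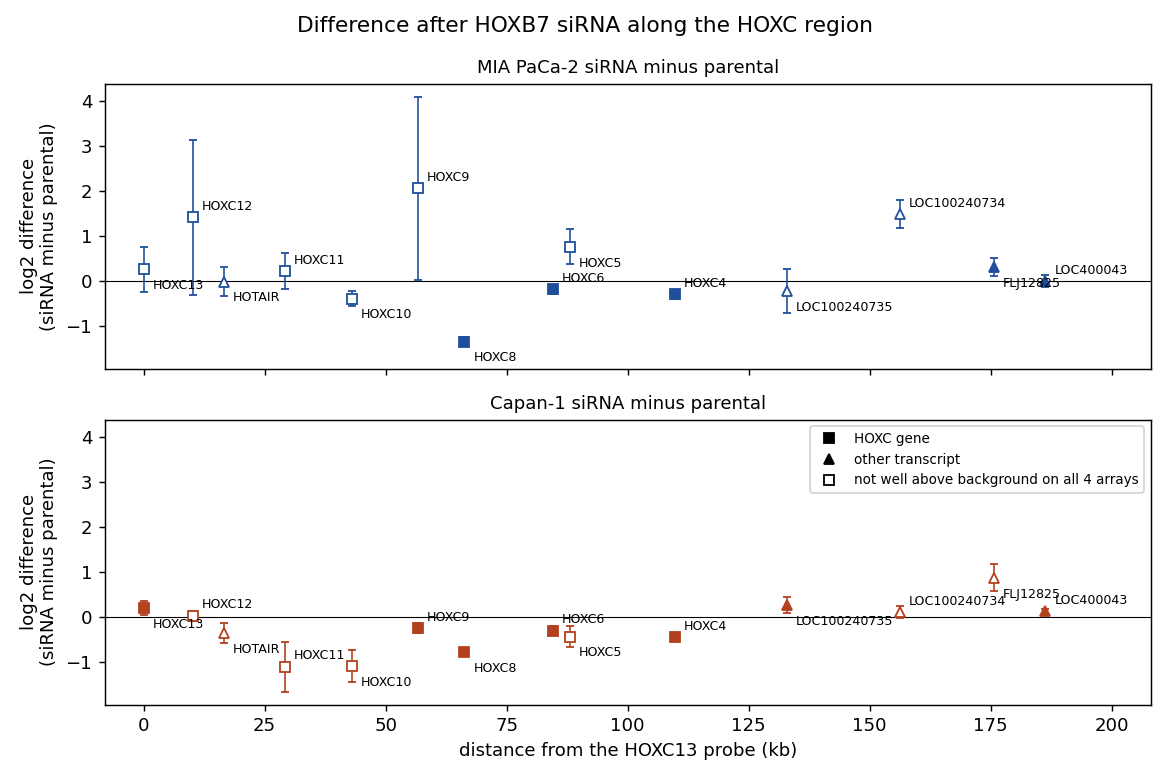
Difference in level (log2, siRNA minus parental) for the HOXC genes (squares) and other transcripts of the region (triangles), by distance from the HOXC13 probe in kb, with bars for the pooled SD of the duplicates (2 per group) and open symbols where a spot was not well above background on all 4 arrays. HOXC8 lies lowest of the filled symbols in both lines, at -1.34 in MIA PaCa-2 cells and -0.79 in Capan-1 cells.

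Noncoding transcripts beyond the HOXC4 end of the cluster were followed by their own probes, at 132.9 to 186.3 kb from the HOXC13 probe. LOC400043, now named LINC02381, was at intensities of 24.8 to 32.5 on the MIA PaCa-2 arrays and 345 to 440 on the Capan-1 arrays, and siRNA differed from parental by a log2 value of 0.01 (SE 0.112) and 0.13 (SE 0.112). FLJ12825 was well above background on all 4 MIA PaCa-2 arrays, at 8.09 to 11.9, with a difference of 0.32 (SE 0.221), and not on any Capan-1 array. LOC100240735 was well above background on all 4 Capan-1 arrays, at 15.3 to 22.8, with a difference of 0.26 (SE 0.308), and not on any MIA PaCa-2 array. LOC100240734 was not well above background on any array. None of these values passed the test, and without scaling between arrays the median over LOC400043 and FLJ12825 in MIA PaCa-2 turned from 0.16 to -0.05.

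Of 25 genes listed on both sides of the cluster, 24 had a probe. Over all probes tested in MIA PaCa-2, 0.932% were called lower and 0.961% higher by limma. Of this list 20 could be tested there and 2 fell, with 0 higher. These were CBX5, which encodes a heterochromatin protein (log2 difference -0.74, SE 0.0975, adjusted p = 0.0324), and NFE2, a blood transcription factor (log2 difference -0.68, SE 0.0959, adjusted p = 0.0382). The other CBX5 probe tested gave -0.35 (SE 0.0892). Neither call held when any 1 of the 8 arrays was left out, with no scaling, with no filter on dim probes, with each line fitted alone or with the replicate number as a block. The median log2 difference of the list was -0.10, beside 0.02 over all probes. In Capan-1, 19 could be tested and 0 passed by limma (3 at an unadjusted p under 0.05), beside 0.00428% of all probes. The median was 0.04 in that line. There the CBX5 probes disagreed, at -0.31 and 0.25, and NFE2 was at 0.18. Judged on the brightest probe of each gene, the largest rise in MIA PaCa-2 was 0.87 (SE 0.377) for PPP1R1A, an inhibitor subunit of protein phosphatase. It had the largest fall in Capan-1, -0.40 (SE 0.377). SP1, a transcription factor, had the largest rise in Capan-1, 0.28 (SE 0.169). Dimmer probes of HNRNPA1 (0.63) and PRR13 (-0.48) went further in that line. None of these last values passed the test.

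HOX proteins bind DNA with cofactors of the PBX and MEIS families, and the clusters are kept on or off by Polycomb and Trithorax complexes and by retinoic acid receptors. Of 9 listed cofactor genes with a probe, 7 could be tested in MIA PaCa-2 cells and 8 in Capan-1 cells. By limma 0 passed in either line, beside 1.89% and 0.00428% of all probes. At an unadjusted p under 0.05 there were 4 and 1 cofactor genes. Extremes here and for the regulators were judged on the brightest probe of each gene. MEIS3 had the largest fall in both lines, -0.41 (SE 0.164) in MIA PaCa-2 and -0.34 (SE 0.164) in Capan-1. The largest rise was 0.30 (SE 0.0816) for PBX3 in MIA PaCa-2 and 0.25 (SE 0.12) for PBX2 in Capan-1. Of 42 regulators with a probe, 39 could be tested in MIA PaCa-2 cells and 40 in Capan-1 cells, and again 0 passed by limma, with 9 and 5 at an unadjusted p under 0.05. In MIA PaCa-2 the extremes were ASH2L, a subunit of histone methyltransferase complexes (-0.38, SE 0.0873), and PHC1, a Polycomb subunit (0.49, SE 0.104). In Capan-1 they were RARG, a retinoic acid receptor (-0.43, SE 0.163), and RNF2, a Polycomb ubiquitin ligase (0.53, SE 0.213). Some dimmer probes went further, such as MLL in Capan-1 (-0.56) and MLL3 (0.58) and PBX3 (0.48) in MIA PaCa-2.

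Of the HOX genes outside the cluster, 20 could be tested in MIA PaCa-2 cells and 19 in Capan-1 cells. HOXB7 was the 1 that passed by limma, in MIA PaCa-2, where 1.89% of all probes did. Without the target HOXB7, the brightest probes of the HOXB genes had a median log2 difference of -0.19 in MIA PaCa-2 cells and -0.23 in Capan-1 cells, with 8 of 8 and 7 of 8 below 0. Those of the HOXA genes had medians of -0.02 and -0.13, with 5 of 9 and 7 of 9 below 0. Of the HOXD genes, 0 of 2 and 0 of 1 were below 0, with medians of 0.16 and 0.32. Over all probes tested 46.9% and 51.3% lay below 0. With quantile scaling the HOXA genes below 0 were 7 and 7. HOXB8, whose probe shares the short run with the HOXC8 probe, was at -0.19 (SE 0.312) in MIA PaCa-2 and -1.26 (SE 0.312) in Capan-1 and did not pass in either. HOXB9, whose probe shares the short run with the HOXC9 probe, was at -0.13 and -0.22. Both were named after their values were seen.

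The self-comparison rule of the study was rebuilt as a second view, with an interval that holds 99% of the log2 ratios between the parental arrays among the 1000 probes nearest in level. In MIA PaCa-2 HOXC8 had log2 ratios of -1.26 and -1.42 between siRNA and parental arrays of the same number, outside limits of 0.95 and 0.84 on both. It was the 1 HOXC probe outside in both duplicates, beside 0.232% of probes lower and 0.257% higher. In Capan-1 HOXC8 had ratios of -0.67 and -0.91 inside limits of 1.35 and 1.62, and 0 HOXC probes lay outside in both duplicates, beside 0.753% lower and 1.03% higher. HOXC6, with narrower limits in Capan-1, came nearest among the other genes, at -0.35 against 0.41 and -0.25 against 0.40. Limits of dim probes were wide, at 4.70 and 4.34 for HOXC10 in Capan-1 and 4.58 and 3.30 for HOXC5 in MIA PaCa-2. A dim probe inside such limits may still have changed. In MIA PaCa-2 HOXC9 and HOXC12 were outside in replicate 1 alone, where their parental spots were not well above background, so the size of those ratios rests on the noise floor and is not given. A gene needed at least 2 probes to be called by the criteria of the study, and with 1 probe each no HOXC gene could be.

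**Figure D3:**
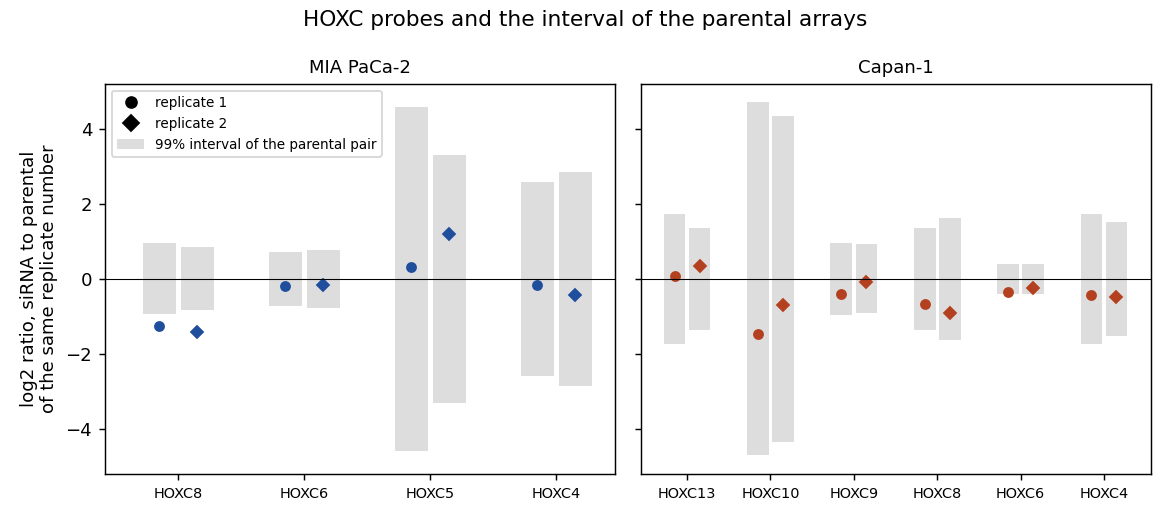
Log2 ratio of siRNA to parental intensity of the same replicate number, after scaling, for the HOXC probes tested in each line, with gray bars for the 99% interval of the parental pair. HOXC8 in MIA PaCa-2 lies below the bars in both replicates, and the ratios of the other probes lie inside theirs. The bars of dim probes are wide, so lying inside them does not show that a probe was unchanged.

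The difference between the siRNA effects of both lines (MIA PaCa-2 minus Capan-1, log2) was -0.55 (SE 0.148) for HOXC8, 0.12 (SE 0.15) for HOXC6 and 0.17 (SE 0.145) for HOXC4. No difference is given for the other members, which were not well above background on at least 1 of the 8 arrays. By limma 0 HOXC probes were called (2 at an unadjusted p under 0.05), beside 0.00391% of 25554 probes called lower and 0% called higher. HOXC9 was called higher when MIA PaCa-2 siRNA replicate 2 was left out, which sets the 1 bright array against parental spots not well above background, so that call gives no measured size. The parental cells of both lines, compared directly, showed a wider spread in the same genes. HOXC9 was at least 13.7-fold, HOXC13 at least 6.44-fold and HOXC10 at least 2.00-fold lower in MIA PaCa-2 than in Capan-1, and HOXC4 was 2.93-fold lower. HOXC8 was 2.62-fold higher, and HOXC6 overlapped between the lines, with a log2 difference of -0.04 (SE 0.106). By limma 4 of the 6 genes compared were called lower and 1 higher, beside 31% and 39.1% of 24968 probes, and 70% in either direction. With normexp background correction the log2 differences were -1.10 for HOXC9, -0.63 for HOXC13, -0.42 for HOXC4 and -0.20 for HOXC10, and HOXC10 lost its call, which left 3 genes lower.

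Profiles over the 8 arrays, each centred on its mean, were ranked for 20628 gene names with a probe well above background in at least 1 group. Nearest to HOXC8 were CBLN3 (root mean square difference 0.194 log2, Pearson r 0.973), ACSL3 (0.195, r 0.986), the transcript ENST00000330805 (0.225, r 0.97), ATP6V1E2 (0.231, r 0.967) and ZCCHC10 (0.233, r 0.98). They were chosen for this likeness, over the same 8 arrays that hold the line and siRNA differences. Of the HOXC genes that were also well above background on all 8 arrays, HOXC6 ranked at 6478 (0.717) and HOXC4 at 17213 (1.35). No rank is given for the others, whose profiles hold arrays without a measured level.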

How the data were processed

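Cy3-labeled cRNA of each sample was hybridized to an Agilent array. The authors scanned the arrays and extracted them with Feature Extraction (9.5.3, per the submitters' processing notes). The deposited files hold the processed signal intensity of each spot, background-subtracted, with outlier flags and background calls. The authors also deposited a table of log2 values of the same intensity, which equals the scanner files to 3.5e-08 with no scaling between arrays.

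Here the log2 intensities of unflagged spots were averaged per probe and each array's 75th percentile over 34127 gene probes was subtracted. A probe was well above background when at least as many of its spots carried the call as did not, and was tested when this held for the 2 arrays of any group in the comparison. For a group below that call a fold is a bound against the lowest signal that was. Where the probe's own signal was higher it was used, and the fold is then the measured one. The group means of all 8 arrays were fitted with limma 3.58.1 (R 4.3.3, lmFit, eBayes), two-sided, with Benjamini-Hochberg adjustment over all probes tested, called under 0.05. The package data.table (1.17.8) read the files, and intervals and figures were made with Python 3.11.15, numpy 2.4.6, pandas 2.3.3 and matplotlib 3.10.9. The scripts were tested on simulated data. By accession 24827 probes matched a RefSeq symbol. With 2 arrays a group, their number limits the precision.

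The members, lists and tests were chosen with earlier results of these data known. All HOXC genes and region transcripts are named, and of the lists each gene past the threshold and the largest rise and fall per line, judged on the brightest probe. The paper does not state the window, scaling or pairing of its interval, which were set here. Alternatives were normexp with an offset of 50, quantile scaling or none, flagged spots kept, the log2 table, other filters, an intensity trend, blocks by replicate number, separate fits of both lines and leaving out each array.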

Additional observations from a re-analysis of the deposited data

Results flagged for a closer look

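The scaled signals of HOXC5 after siRNA lay above those of both parental arrays in MIA PaCa-2 and under them in Capan-1, which is why this gene is listed here. In Capan-1 the probe was not well above background on any array, so its signals there have no measured order, and neither a fall in that line nor a size of the gap was measured. The gap between the signals, 1.20 on the log2 scale, became 0.08 with normexp background correction, and the limma fit did not call it. The cause was not tested.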

How the results depend on the processing

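The number of HOXC probes called lower in MIA PaCa-2, 1 as reported, was 0 with no filter on dim probes, with each cell line fitted alone and with the replicate block, and it ranged from 0 to 1 with each array left out in turn. Over the probes, the deviations of same-numbered arrays correlated at 0.0153 in MIA PaCa-2 cells and 0.0394 in Capan-1 cells. These values show no deviation shared by number, but they cannot tell whether the samples were paired when made. The block changed no other HOXC call. The log2 difference of HOXC8 in MIA PaCa-2 ran from -1.55 (no scaling) to -0.68 (normexp), and in Capan-1 from -0.94 to -0.19. Other filters, separate fits, the block and the trend leave a difference of group means as it is. So does leaving out an array of the other line, and these alternatives are no check of its sign. A fit that leaves out an array assumes that the lone array of its group varies like the other groups. Between parental lines the 4 HOXC probes lower became 3 with normexp, 5 with no filter and 1 when only probes well above background on all 8 arrays were used, which removes the dim ones. The 0 HOXC probes higher for the difference of the siRNA effects ranged from 0 to 1 with an array left out. Over the cluster transcripts, flanking genes, cofactors and regulators, the 2 genes lower in MIA PaCa-2 became 0 with no scaling, no filter, each line alone and the block, and 0 with any array left out. The 0 higher became 2 with normexp, 2 with an intensity trend and 1 with the all-array filter, and ranged from 0 to 1 with an array left out. With an interval of 95% the HOXC probes lower in Capan-1 became 2 from 0. Over all probes in MIA PaCa-2, the 221 lower and 228 higher became 509 and 409 with normexp, 340 and 236 with quantile scaling, 33 and 14 with no scaling, 5 and 5 with no filter, 561 and 445 with the all-array filter, 0 and 0 with each line alone, 12 and 7 with the block, 696 and 556 with the trend, 92 and 157 to 4 and 8 without single MIA PaCa-2 arrays and 1 and 2 without any 1 Capan-1 array. No scaling moved the median of all probes to -0.19 in MIA PaCa-2 cells and -0.16 in Capan-1 cells. Of the single HOXC differences, the sign turned under 1 of 71 values in MIA PaCa-2 cells and 1 of 105 in Capan-1 cells, with normexp, whose offset compresses dim probes. It turned under 2 of 99 between the parental lines (HOXC6) and under 5 of 115 for the difference of the siRNA effects (HOXC13). These totals include the alternatives that leave a difference as it is, so they do not measure how stable the signs are. Dim probes limit the rest: with spots not well above background no difference could be measured for HOXC11, HOXC12 and HOTAIR.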
